A study of Arabidopsis thaliana with 30 samples.

Results

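VP16-05-014 is a line of Arabidopsis thaliana that is set here against the VP16 pool 5 background, the pool whose number stands in the name of the line. The 6 libraries were chosen by their labels, 3 of the line (A, B and C) and 3 of the pool (A, B and C), of 30 libraries in 10 groups. Both groups are shoots labelled with the genotype VP16, kept in RNA Later, from which total RNA was sequenced. VP16-02-003, a second line of genotype VP16, and the VP16 pool 2 background were used for 1 comparison between lines, and Col-0, the common laboratory accession, for reference levels, each with 3 libraries. The age and treatment of the plants, the number of plants behind a library, the promoter and the zinc-finger target of the line are not stated in the labels. Nothing in the labels says that replicates came from separate plants, so the p-values speak only of how far these samples vary, and part of that variation may be technical.

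In genome interrogation, artificial transcription factors made of zinc fingers and an effector domain are expressed in plants, and plants with altered growth are kept as lines. VP16 is a transcriptional activation domain from a herpes simplex virus protein, so a zinc-finger VP16 factor is built to raise transcription near the sites it binds. The labels call the pool a background, and do not say that the line was taken from it. If the pool is a mixture of plants, the comparison sets 1 selected line against a mixture. The labels do not say so, nor what the pool's plants carry beyond VP16.

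The libraries of the line held 12021299 to 15681337 reads on genes and those of the pool 10637917 to 29125793. Line library C stood apart from A and B before any test. On the first principal component of the 30 libraries it lay at -50.6, where A and B lay at 24.5 and 26.7 and the pool libraries at -47, -34.8 and -24.7. Over 19566 genes its Spearman correlation was 0.987 with pool library A but 0.955 and 0.954 with A and B of its own line, which correlated at 0.994 with each other. These correlations are across genes, which are not independent replicates. Counts of calls, and the differences called with all libraries, are therefore also given without line library C. Markers of the shoot (RBCS1A, LHCB3, LHCA1, LHCB5 and CAB1) summed to 55800 to 65900 CPM (counts scaled to library depth, normalised by TMM) in the line and 56500 to 59300 in the pool. The 8 root markers summed to 56.6 to 92.1 and 86.5 to 98.6 CPM, nearly all of it PYK10, with 4 of 8 at 0 in all 3 line libraries and 3 of 8 at 0 in the pool, and the 9 flower and seed markers to at most 1.2 CPM.

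One entry of the tables is called VP16, with no sequence stated. Its level was 22.3, 21.9 and 26.6 CPM in line libraries A, B and C, 11.1, 10.6 and 16.9 in the pool, and a mean of 0.0434 CPM in Col-0. All 3 line libraries lay above all 3 pool libraries, and library C was as high as A and B. The line was higher by 0.86 on the log2 scale (standard error 0.32), which did not pass the test across all genes (adjusted p = 0.15 with all libraries and 0.12 without library C, by the quasi-likelihood test of edgeR). The entry was also read in the groups labelled EAR, the name of a plant repression motif, at means of 0.79 to 7.46 CPM, so it does not mark the VP16 genotype alone. All 3 libraries of VP16-05-014 lay above each library of the other groups.

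AT2G05914, a non-coding RNA gene in the RefSeq annotation that overlaps AT2G05915, behaved in the same way. It had the largest called increase among genes with a mean of at least 5 CPM in the higher group. Its levels were 5.64, 5.13 and 5.74 CPM in line libraries A, B and C and 1.22, 1.48 and 0.206 in the pool. The line libraries lay close together and the groups did not overlap. AT2G05914 was higher in the line by 2.79 on the log2 scale (standard error 0.43, adjusted p = 0.00907). Col-0 had a mean of 1.54 CPM. A gain at this locus was not particular to the line, since EAR-13-068, a line of the genotype EAR, had a mean of 12.6 CPM.

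Of the 19566 genes tested, 293 were called at an adjusted p under 0.05 between the line and pool 5, 1.5% of the genes. Of these 124 (0.634%) were higher and 169 (0.864%) lower in the line, and 32 and 67 of them changed by at least 2-fold. With library size alone in place of TMM the split was 68 higher and 161 lower. Irrespective of the test, 1394 genes (7.12%) had all 3 line libraries above all 3 pool libraries and 1607 (8.21%) had all 3 below. Of the called genes, 108 of the 124 higher and 167 of the 169 lower had no overlap between line and pool. Lack of overlap in a called gene therefore adds little to its call. An exact permutation test of 3 libraries against 3 cannot go below p = 0.1, so single genes rest on the fit over all 30 libraries.

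Without line library C, 5075 of 19751 genes were called (25.7%), of which 2611 (13.2%) were higher and 2464 (12.5%) lower in libraries A and B than in the pool. All 293 genes called with all libraries were among them, in the same direction, though the fits share every library but C. Library C decided this count, and each of the other libraries moved it as well. The number called was 64 without line library A, 21 without line library B, 124 without pool library A, 2 without pool library B and 60 without pool library C. In a fit of the 6 libraries alone edgeR called no gene, and 1725 had an unadjusted p under 0.05, while DESeq2 over all 30 libraries called 742. Every call given below with all libraries therefore rests on the fit that draws its estimate of spread from the other groups as well.

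**Figure D1:**
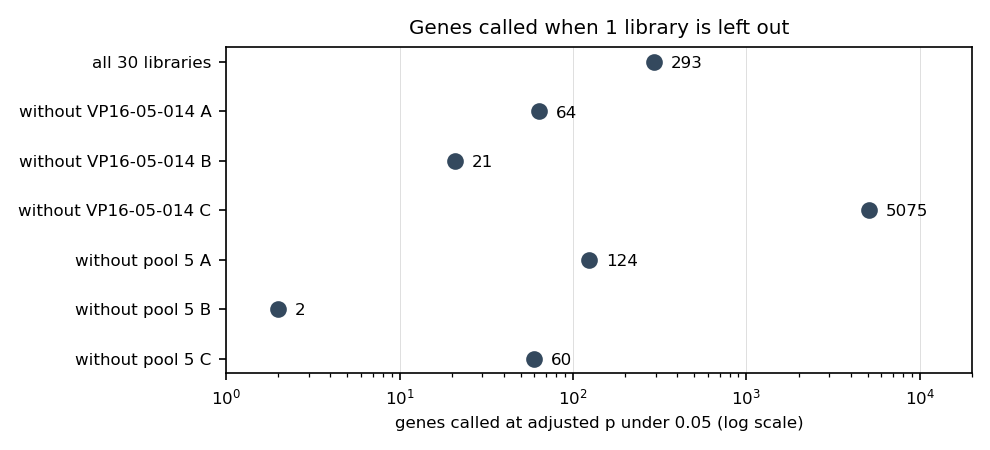
Number of genes called between VP16-05-014 and pool 5 (adjusted p under 0.05, log axis) in the fit of all 30 libraries and in fits that leave out 1 of the 6 libraries. The count was 293 with all libraries, 5075 without line library C and 2 without pool library B.

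In 290 of the 293 genes called with all libraries, library C lay on the same side of the pool mean as A and B. It lay within the pool range in 15 of the 293 and beyond it on the opposite side in 2. Library C was part of the fit that called these 293 genes, which favours genes in which it sided with A and B. The counts for these genes are therefore not a separate check of library C. Among the 169 lower genes, library C was below the whole range of the pool in 167, and the median distance from the pool mean was 0.76 on the log2 scale in A and B and 0.71 in C. Among the 124 higher genes, C was above the pool range in 109, with medians of 0.73 in A and B and 0.28 in C. Among the 5070 genes called without C that were also tested with it, C lay on the side of A and B in 1856 and on the other side of the pool mean in 3214. In 2403 of these genes it lay beyond the pool range in the opposite direction.

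A pair of genes held their call in all 6 fits that left out 1 library, AT2G05914 (2.76 on the log2 scale without library C) and PKS2, although neither was called in the fit of the 6 libraries alone. PKS2 encodes a phytochrome kinase substrate, a family that acts in phototropism and leaf positioning. Its levels were 48.1, 51.6 and 32.9 CPM in the line and 19, 17.2 and 17.3 in the pool. All 3 line libraries stood above every pool library, with C the lowest of the line. PKS2 rose by 1.31 on the log2 scale (standard error 0.19, adjusted p = 0.00519), and by 1.48 without library C. Another 11 genes held their call in 5 of the 6 fits, all of them lower in the line. They include LOX4, ORA47, ERF-1, EXO70H7 and the genes AT1G66090 and AT2G29300. These 13 genes were picked out after their values were seen.

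The list with the most members called lower with all libraries was that of touch and rapid stress responses. Genes of this group are transcribed within minutes of touch, wounding or attack, and most encode transcription factors of the ERF, zinc-finger and WRKY families or calcium sensors. Of 23 members tested, 5 fell in the line and none rose, where 0.864% of all genes fell. The gene lists were chosen with earlier results of these data known, so such shares describe a list and do not test it. The median difference over the list was -1 on the log2 scale, against 0.00173 over all genes. In library C 21 of the 23 members lay below the pool range. No share of all genes was counted for the place of C beside the pool range, here or for the lists below. The number that fell was 0 without pool library B, 1 to 3 without any 1 of line A, line B, pool A and pool C, and 7 of 24 without line library C. It was 0 in the fit of the 6 libraries alone.

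ORA47, an AP2/ERF transcription factor that activates jasmonate synthesis genes, stood at 2.11, 1.71 and 2.02 CPM in the line and at 26.2, 12.9 and 6.49 in the pool. The line libraries were alike and the pool libraries spread widely, without overlap. The difference was -2.93 on the log2 scale (standard error 0.49, adjusted p = 0.0114), and -2.96 without library C. Col-0, at a mean of 4.07 CPM, lay between the groups.

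ZAT11, a C2H2 zinc-finger transcription factor, was at 0.47, 0.256 and 0.316 CPM in the line and at 2.75, 6.37 and 3.47 in the pool, a difference of -3.53 (standard error 0.64, adjusted p = 0.0134). ERF6, an activator of defence and ethylene-responsive genes, was at 7.36, 5.9 and 2.59 CPM in the line and 14.6, 21.1 and 16.9 in the pool (-1.75, standard error 0.36, adjusted p = 0.0191). ERF5, its close relative, was at 6.81, 5.04 and 3.54 CPM in the line and 20.8, 20 and 13.1 in the pool (-1.81, standard error 0.43, adjusted p = 0.039). None of these genes had overlapping groups, and library C was the lowest line library for ERF5 and ERF6. TCH2, a calmodulin-like calcium sensor found as a touch-induced gene, was at 13.8, 16.8 and 18.9 CPM in the line and 29.9, 28.4 and 23.2 in the pool, and here C was the line library nearest to the pool. TCH2 fell by 0.71 on the log2 scale (standard error 0.18, adjusted p = 0.0474). Without library C the differences of ZAT11, ERF6, ERF5 and TCH2 were -3.46, -1.40, -1.58 and -0.83 (adjusted p = 0.00239, 0.00857, 0.0193 and 0.00587).

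WRKY33, WRKY40 and WRKY53, which control defence genes, did not pass the test with all libraries. Library C held 15.4, 1.45 and 2.59 CPM of them, against 111 to 190, 14.8 to 22.9 and 29.4 to 56.2 in the pool. Libraries A and B held 66.3 and 53.3 CPM of WRKY33, 10.5 and 8.46 of WRKY40 and 23.1 and 19.3 of WRKY53. The line thus lay below the pool in every library for all 3 genes, as it did for 8.21% of all genes tested. The members with no such difference were TCH3, TCH4, CML37, ERF2, WRKY46 and WRKY18, whose line and pool libraries overlapped. Without library C the list held 7 lower genes, among them WRKY33 and WRKY40 (adjusted p = 0.0407 and 0.0286) but not WRKY53 (0.0773), and 1 higher gene, TCH3, another calmodulin-like protein, at 435 and 372 CPM in A and B, 58.6 in C and 151 to 295 in the pool.

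Among called genes with a mean of at least 5 CPM in the higher group, most of the 10 largest falls lay outside the list. Below that floor larger falls were called, in AT1G22810 (-4.33 on the log2 scale) and in ZAT11. DIC2, a mitochondrial dicarboxylate carrier, was at 8.07, 6.5 and 5.11 CPM in the line and 45.7, 56.9 and 30.7 in the pool, a difference of -2.76 (standard error 0.51, adjusted p = 0.0134). SZF1, a salt-inducible zinc-finger gene, was at 50.1, 40.1 and 19.3 CPM in the line and 138, 195 and 120 in the pool, a difference of -2.05 (standard error 0.43, adjusted p = 0.0205). AT1G66090, annotated as a disease resistance protein of the TIR-NBS class, was at 6.66, 7.44 and 2.21 CPM in the line and 22.5, 37.1 and 21 in the pool (-2.33, standard error 0.42, adjusted p = 0.0134). In each of these genes the line libraries lay below all pool libraries, and without library C the differences of DIC2, SZF1 and AT1G66090 were -2.60, -1.75 and -1.92.

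The other 6 of the 10 largest falls above the floor of 5 CPM were AT2G18210, AT1G78990, AT1G05575, AT2G29300, GRP9 and AT4G33467. Their differences ran from -2.58 to -2.02 on the log2 scale (-2.99 to -1.77 without library C), with no overlap between line and pool. AT1G78990 is annotated as an HXXXD-type acyl-transferase and GRP9 as a glycine-rich protein. LOX4, a lipoxygenase of the jasmonate pathway, was at 11.2, 8.12 and 7.76 CPM in the line and 27, 40.6 and 27.6 in the pool. It fell by 1.81 on the log2 scale (standard error 0.28, adjusted p = 0.00907), by 1.71 without library C, and was the 1 called gene among 25 jasmonate genes tested, whose median was -0.161.

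**Figure D2:**
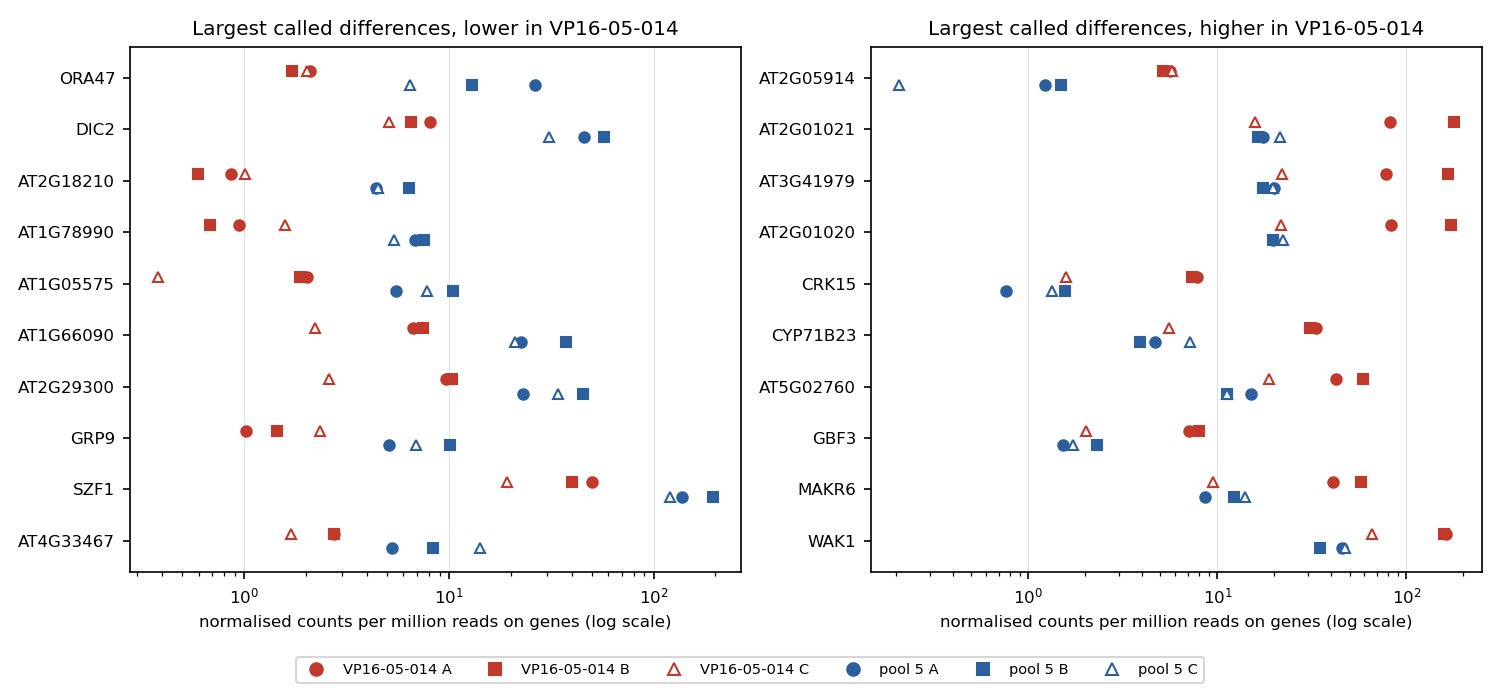
Normalised CPM (log axis) in each line library (red) and pool 5 library (blue) for the 10 largest called falls (left) and rises (right) with a mean of at least 5 CPM in the higher group. Line and pool libraries did not overlap in any of the 10 falls, as in 167 of all 169 genes called lower. Library C (open red triangle) lay within the pool range in 4 of the rises and beyond it on the low side in AT2G01021.

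Among the genes that rose, the auxin list held the most calls. Auxin is a growth hormone whose early response genes include the Aux/IAA repressors, the GH3 enzymes that conjugate auxin and the small SAUR proteins, while YUC enzymes make auxin and PIN proteins carry it out of cells. Of 25 members tested, 4 rose with all libraries and none fell, where 0.634% of all genes rose, and the median difference was 0.55. This list too was chosen with earlier results of these data known, so its shares are a description. Without library C 14 of the 25 rose and none fell, where 13.2% of all genes rose, with a median of 0.83. The number that rose was 0 without line library B or pool library B, 1 without line A, pool A or pool C, and 0 in the fit of the 6 libraries alone.

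YUC2, a flavin monooxygenase of auxin synthesis, was at 4.46, 5.56 and 3.6 CPM in the line and 1.91, 1.76 and 2.06 in the pool. All line libraries were higher than all pool libraries, and YUC2 rose by 1.22 on the log2 scale (standard error 0.23, adjusted p = 0.0153). SAUR15 was at 7.05, 7.27 and 7.2 CPM in the line and 4.5, 3.97 and 3.57 in the pool, again without overlap and with library C equal to A and B (0.85, standard error 0.20, adjusted p = 0.0345). GH3.3 was at 18.2, 20 and 7.32 CPM in the line and 6.41, 5.36 and 6.38 in the pool, so that library C was just above the pool (1.30, standard error 0.31, adjusted p = 0.0411). PIN3, an auxin efflux carrier, was at 104, 109 and 58.6 CPM in the line and 51.3, 58.7 and 64.5 in the pool (0.63, standard error 0.15, adjusted p = 0.0339). Here library C lay within the pool range, and the call rests on A and B. Without library C the differences of YUC2, SAUR15, GH3.3 and PIN3 were 1.36, 0.84, 1.63 and 0.86, all called.

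Several auxin genes were higher in A and B alone. IAA29, an Aux/IAA repressor also responsive to shade, was at 19.6 and 30.8 CPM in A and B, 2.21 in C and 2.97 to 8.1 in the pool. IAA2 was at 118 and 132 CPM in A and B, 31.4 in C and 42.3 to 66.5 in the pool. WES1, a GH3 enzyme, was at 15.1 and 14.2 CPM in A and B, 2.65 in C and 4.62 to 7.21 in the pool. For these 3 genes library C lay below the pool while A and B lay above it, and without C the adjusted p was 0.00257, 0.00035 and 0.000153.

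The windows of 250 bases before the annotated gene starts were searched on both strands for TGTCTC, the core of the auxin response element, and for CGCGTT, the core of an element described for genes with rapid stress responses. TGTCTC was present in 3 of the 4 auxin genes that rose with all libraries and in 11 of the 25 tested (44%), against 10.5% of the 19041 protein-coding genes tested and 10.9% of all 27443 such windows. It was also present in 2 of the 5 touch and rapid stress genes that fell and in 6 of the 23 tested (26.1%), so it was not limited to the auxin list. CGCGTT was present in 1 of the 5 touch and rapid stress genes that fell, TCH2, and in 1 of the 23 tested (4.35%), against 2.84% of the genes tested and 2.59% of all windows. Its share in the auxin list was higher, at 2 of 25 (8%), though in none of the 4 that rose. Among all genes called higher and lower, 13.3% and 12.7% held TGTCTC and 5.83% and 6.02% held CGCGTT. A match describes these letters and shows neither binding nor its absence. All 6 windows with a match to either motif among the called members of both lists are given 5′ to 3′ on the strand of the gene, to show where the letters stand, with the matches on either strand in capitals. They were read from the RefSeq TAIR10.1 genome by its own annotation, since the count tables hold no coordinates. GH3.3 lies on the minus strand, chr2:9866563-9866812, SAUR15 on the plus strand, chr4:18125807-18126056, and YUC2 on the minus strand, chr4:7724071-7724320. Of the touch and rapid stress genes, TCH2 lies on the minus strand, chr5:14999620-14999869, ZAT11 on the plus strand, chr2:15706035-15706284, and ERF5 on the plus strand, chr5:19179631-19179880, in a window that overlaps the annotated locus AT5G47229.
GH3.3: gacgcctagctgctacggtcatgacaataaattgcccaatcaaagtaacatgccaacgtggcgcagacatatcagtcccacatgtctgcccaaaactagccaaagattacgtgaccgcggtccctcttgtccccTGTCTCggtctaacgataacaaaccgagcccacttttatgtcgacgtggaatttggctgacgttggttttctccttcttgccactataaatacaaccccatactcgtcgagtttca
SAUR15: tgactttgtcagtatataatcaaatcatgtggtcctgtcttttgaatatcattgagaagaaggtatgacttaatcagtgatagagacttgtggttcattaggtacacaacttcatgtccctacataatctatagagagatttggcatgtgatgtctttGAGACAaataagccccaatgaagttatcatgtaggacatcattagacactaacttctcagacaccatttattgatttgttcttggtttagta
YUC2: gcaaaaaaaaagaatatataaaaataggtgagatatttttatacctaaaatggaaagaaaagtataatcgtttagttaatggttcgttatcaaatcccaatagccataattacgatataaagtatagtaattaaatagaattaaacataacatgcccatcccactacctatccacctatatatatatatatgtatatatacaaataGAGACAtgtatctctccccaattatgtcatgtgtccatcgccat
TCH2: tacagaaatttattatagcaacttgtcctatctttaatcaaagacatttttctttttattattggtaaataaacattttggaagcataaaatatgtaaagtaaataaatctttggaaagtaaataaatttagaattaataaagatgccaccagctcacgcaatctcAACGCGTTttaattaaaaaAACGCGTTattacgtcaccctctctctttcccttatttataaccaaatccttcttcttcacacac
ZAT11: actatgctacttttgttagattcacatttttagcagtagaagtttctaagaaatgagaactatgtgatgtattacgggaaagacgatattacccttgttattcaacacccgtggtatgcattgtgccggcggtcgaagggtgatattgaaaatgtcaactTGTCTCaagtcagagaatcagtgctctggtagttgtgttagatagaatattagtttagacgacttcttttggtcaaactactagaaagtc
ERF5: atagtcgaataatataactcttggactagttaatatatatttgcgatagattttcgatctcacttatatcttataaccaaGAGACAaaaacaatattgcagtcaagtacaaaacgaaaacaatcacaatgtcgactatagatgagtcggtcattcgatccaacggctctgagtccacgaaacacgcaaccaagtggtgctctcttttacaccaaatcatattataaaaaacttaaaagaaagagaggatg
The TGTCTC match starts 116 bases before the gene start in GH3.3, 92 in SAUR15, 44 in YUC2, 90 in ZAT11 and 170 in ERF5, where SAUR15, YUC2 and ERF5 hold it on the opposite strand and so print as GAGACA. In TCH2 the 4 matches to CGCGTT form a pair of identical blocks in which both strands match and overlap.

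Growth-related genes outside the auxin list showed a few calls in both directions. XTH24, a xyloglucan-modifying enzyme of the cell wall, was at 64.5, 68.3 and 33.3 CPM in the line and 26.8, 28.1 and 23 in the pool and rose by 1.09 on the log2 scale (standard error 0.22, adjusted p = 0.0172). BR6OX2, an enzyme of the last steps of brassinosteroid synthesis, was at 26.2, 25.8 and 20.2 CPM in the line and 13.8, 12.7 and 11.5 in the pool and rose by 0.93 (standard error 0.22, adjusted p = 0.0349). GA3OX1, which makes bioactive gibberellin, was at 6.97, 8.04 and 8.21 CPM in the line and 12.7, 12.6 and 13.9 in the pool and fell by 0.76 (standard error 0.17, adjusted p = 0.0245). The groups did not overlap in any of these 3 genes. PIF3, a phytochrome-interacting factor, fell by 0.46 (adjusted p = 0.0449) as the 1 called gene of 12 shade and PIF genes. Of 23 cell wall loosening genes XTH24 was the 1 called, and of 20 brassinosteroid and gibberellin genes BR6OX2 and GA3OX1 were, with list medians of -0.0254 and 0.115. Without library C the differences of XTH24, BR6OX2, GA3OX1 and PIF3 were 1.35, 1.04, -0.82 and -0.40, all called.

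A pair of mitotic genes fell. CYC1BAT, a B-type cyclin, was at 14.4, 17.1 and 18.6 CPM in the line and 23.9, 23 and 27.2 in the pool, a fall by 0.57 on the log2 scale (standard error 0.14, adjusted p = 0.0437). CDC20.1, an activator of the anaphase-promoting complex, was at 28.5, 33.3 and 33.4 CPM in the line and 46.2, 43.3 and 43.2 in the pool, a fall by 0.48 (standard error 0.11, adjusted p = 0.0286). They were 2 of 20 cell cycle and DNA replication genes tested, of which none rose, with a median of -0.318, and both were lower in every line library than in any pool library. Without library C 13 of the 20 fell, where 12.5% of all genes fell, and CYC1BAT and CDC20.1 were at -0.67 and -0.53. In bulk shoots fewer cells of a type and less RNA per cell cannot be told apart.

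Among 19 salicylic acid defence genes WAK1 rose and WRKY70 fell. WAK1, a wall-associated receptor kinase, was at 162, 158 and 65.7 CPM in the line and 45.7, 35.1 and 47.2 in the pool (1.59, standard error 0.38, adjusted p = 0.0402). WRKY70, a transcription factor between salicylic acid and jasmonate signalling, was at 32.8, 32.9 and 47.3 CPM in the line and 104, 114 and 86.9 in the pool (-1.43, standard error 0.33, adjusted p = 0.0322). Neither gene had overlapping groups, and in both library C was the line library nearest to the pool. NYC1, a chlorophyll b reductase, fell by 0.26 (adjusted p = 0.0477) as 1 of 9 senescence genes and GSTU18 by 0.35 (adjusted p = 0.0485) as 1 of 17 tau glutathione transferases. Without library C the differences of WAK1, WRKY70, NYC1 and GSTU18 were 1.89, -1.64, -0.31 and -0.45, all called.

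Of the remaining 10 largest rises with at least 5 CPM in the higher group, several depended on libraries A and B. CRK15, a cysteine-rich receptor-like kinase, was at 7.83, 7.35 and 1.58 CPM in the line and 0.763, 1.57 and 1.34 in the pool. CYP71B23, a cytochrome P450, was at 33.2, 31 and 5.56 CPM in the line and 4.65, 3.88 and 7.14 in the pool. MAKR6, a membrane-associated kinase regulator, was at 41.1, 57.6 and 9.53 CPM in the line and 8.62, 12.3 and 14 in the pool. Library C lay within the pool range for CYP71B23 and MAKR6 and at its upper edge for CRK15, and the differences of CRK15, CYP71B23 and MAKR6, 2.14, 2.07 and 1.60 on the log2 scale (adjusted p = 0.0418, 0.0459 and 0.0277) rest on A and B. GBF3, a G-box binding factor, was at 7.05, 7.95 and 2.02 CPM in the line and 1.53, 2.31 and 1.72 in the pool (1.61, standard error 0.39, adjusted p = 0.0418), with C within the pool range. AT5G02760, annotated as a protein phosphatase 2C, was at 42.2, 58.9 and 18.7 CPM in the line and 15, 11.3 and 11.2 in the pool, without overlap (1.68, standard error 0.38, adjusted p = 0.0297). Without library C the differences of these 5 genes, in the same order, were 2.61, 2.53, 2.05, 2.04 and 2.02.

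The last 3 of the 10 largest rises were entries for ribosomal RNA or next to it, and they moved with the composition of 2 libraries. AT2G01020 and AT3G41979, annotated in RefSeq as 5S and 5.8S ribosomal RNA, stood at 82.5, 173 and 21.6 CPM and at 78.4, 165 and 22 CPM in line libraries A, B and C, and between 17.5 and 22.2 CPM in the pool. AT2G01021 followed them at 82.2, 179 and 15.9 CPM. The pool held 16.4 to 21.4 CPM of AT2G01021, so library C was just below the pool there and within or just above it for AT2G01020 and AT3G41979. The calls for AT2G01020, AT3G41979 and AT2G01021 (adjusted p = 0.018, 0.0171 and 0.049) rest on A and B, and without library C the differences were 2.62, 2.65 and 2.79 on the log2 scale. Copies of these genes are near-identical, so reads on them are uncertain. Nuclear ribosomal RNA took 0.451 and 1.01% of the reads on genes in A and B, 0.0706% in C and 0.0848 to 0.13% in the pool. Plastid genes took 0.564 and 1.29% in A and B, 0.147% in C and 0.13 to 0.227% in the pool. Of 91 plastid entries 43 were higher without C, and edgeR called none with all libraries. With plastid, mitochondrial and ribosomal RNA genes removed before normalisation, a setting chosen after seeing the data, 285 genes were called with all libraries and 4984 without C. Beyond this, the part of the ribosomal and plastid RNA share of A and B in the other results was not tested.

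Without library C further gene groups held many calls. The place of C differed between them, from the side of A and B to the opposite side of the pool. The place of C was not counted over all genes tested, so the list counts for C have no share to stand beside. The list with the largest median difference was that of sulfate assimilation, the reduction of sulfate to sulfide and its control by low sulfur. Of 18 genes tested, 1 fell with all libraries, and 12 fell and 1 rose without C, where 12.5% of all genes fell and 13.2% rose. The median was -0.796 with all libraries and -1.61 without C. Library C lay below the pool range in 9 of the 18 genes, within it in 5 and above it in 4, and its list median was -0.275 relative to the pool mean, against -1.29 and -1.93 in A and B.

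APR1, an APS reductase that controls the flux of sulfate reduction, was at 47.7 and 31.4 CPM in A and B, 200 in C and 312, 277 and 212 in the pool. APR3 was at 44.9 and 28.1 CPM in A and B, 136 in C and 244, 256 and 183 in the pool. LSU2, a gene named for its response to low sulfur, was at 1.64 and 1.71 CPM in A and B, 31.8 in C and 43.2, 27.9 and 17.6 in the pool. C lay between A and B and the pool for APR1 and APR3 and within the pool range for LSU2, and without it the differences were -2.76 (standard error 0.53), -2.64 (0.61) and -4.13 (0.87), with adjusted p = 0.000928, 0.00326 and 0.00183. ATSDI1, a sulfur deficiency-induced gene, was low in all 3 line libraries, at 5.56, 3.59 and 8.84 CPM against 34.4, 43.3 and 26.7 in the pool (adjusted p = 0.0746 with all libraries and 0.0212 without C). The call with all libraries was SHM7, a serine hydroxymethyltransferase, at 64.1, 39.7 and 41.4 CPM in the line and 151, 192 and 155 in the pool (-1.77, standard error 0.46, adjusted p = 0.0485, and -1.68 without C). Col-0 stood below pool 5 for these genes, with a mean of 148 CPM for APR1 and 93.2 for SHM7.

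Aliphatic glucosinolates are sulfur-rich defence compounds made from methionine. Of 19 genes of their synthesis none was called with all libraries, and 13 fell without C (68.4%, where 12.5% of all genes fell). With all libraries none had an unadjusted p under 0.05 and DESeq2 called none. In this list library C lay above the pool range in 18 of 19 genes, opposite to A and B. MYB29, a transcription factor of the pathway, was at 14.3 and 15.2 CPM in A and B, 68.9 in C and 59.3, 36.4 and 28.7 in the pool. SOT17, a sulfotransferase of the last step, was at 16.1 and 13 CPM in A and B, 99.9 in C and 73.9, 47.8 and 33.8 in the pool, so that the difference without C was -1.83 (standard error 0.36, adjusted p = 0.00119) and with it -0.24 (standard error 0.48, adjusted p = 0.814). The list median was -0.252 with all libraries and -1.1 without C. SOT18 and BAT5, a transporter of the pathway, differed by -1.40 and -1.29 without C. Of 12 indole glucosinolate genes 7 fell and 1 rose without C (66.7% called, where 25.7% of all genes were), and CYP79B2, which starts the pathway from tryptophan, was at 16.7 and 12.2 CPM in A and B, 108 in C and 41 to 82.6 in the pool.

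Genes induced by darkness and carbon starvation were arranged the other way round. Of 20 tested none was called with all libraries, and 16 rose and none fell without C, where 13.2% of all genes rose. With all libraries the unadjusted p of 8 higher genes was under 0.05, and 2 were called by DESeq2. Library C lay below the pool range in 18 of the 20. ASN1, an asparagine synthetase induced in the dark, was at 77.1 and 67.5 CPM in A and B, 3.09 in C and 5.03, 13.7 and 21.9 in the pool. SEN1, a dark-induced gene, was at 62.4 and 60.6 CPM in A and B, 2.27 in C and 8.31, 17 and 19.6 in the pool. GDH1, a glutamate dehydrogenase, was at 126 and 108 CPM in A and B, 25.6 in C and 35.2 to 60.1 in the pool. A and B were thus far above the pool and C below it, and the pool libraries themselves differed: the list median relative to the pool mean was -0.417, 0.107 and 0.376 on the log2 scale in pool libraries A, B and C, 1.23 and 1.04 in line libraries A and B and -1.41 in C. Without C the differences of ASN1, SEN1 and GDH1 were 2.34, 2.00 and 1.24 (adjusted p = 0.0136, 0.00368 and 0.000798).

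**Figure D3:**
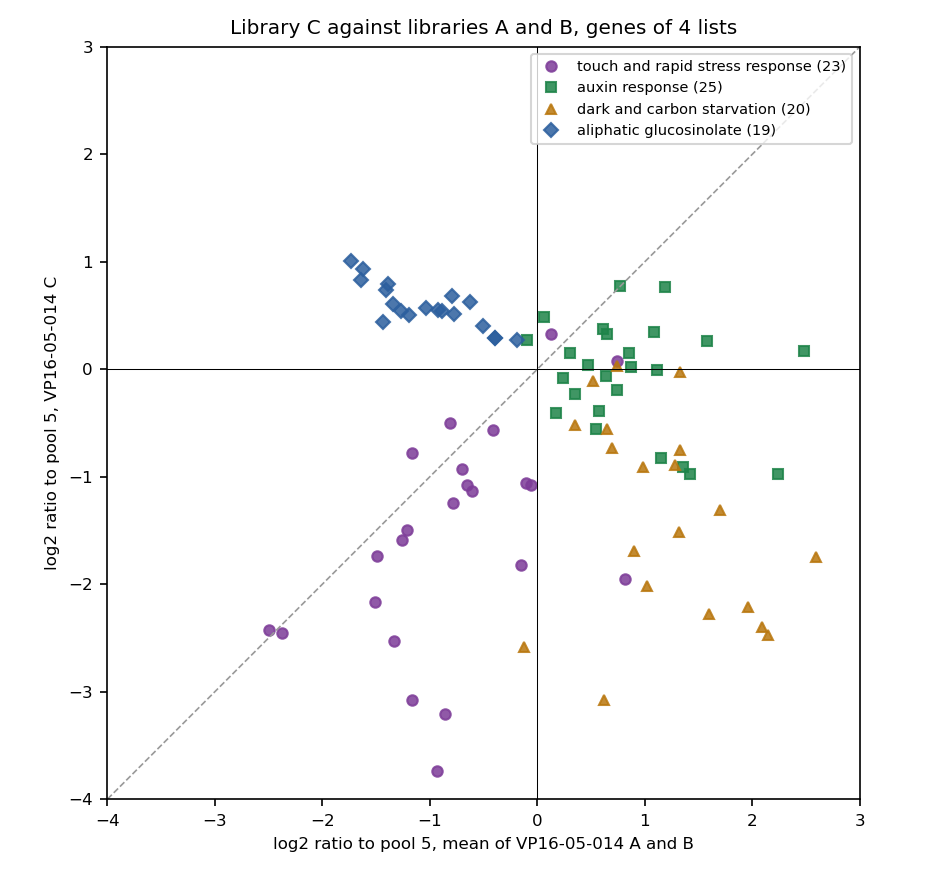
Log2 ratio to the pool 5 mean (CPM + 0.5) in line library C (vertical axis) against the mean of line libraries A and B (horizontal axis) for the genes tested of 4 lists, with the line of equality dashed. The aliphatic glucosinolate genes lie low in A and B and high in C, the dark and carbon starvation genes the reverse, and the touch and rapid stress genes mostly low in both.

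In flavonoid and anthocyanin genes C again lay opposite to A and B. None of 16 was called with all libraries, 4 fell without C (25%, where 12.5% of all genes fell), and C lay above the pool range in 14. PAP1, a MYB activator of anthocyanin synthesis, was at 1.33 and 1.2 CPM in A and B, 25.1 in C and 11.8, 6.1 and 4.57 in the pool. Starch metabolism had no call of 18 with all libraries, and 12 fell and 2 rose without C (77.8% called, where 25.7% of all genes were). SEX1, the glucan water dikinase that starts starch breakdown, was at 440 and 391 CPM in A and B, 793 in C and 688 to 694 in the pool. Phosphate starvation genes had no call of 12 with all libraries and 3 of 13 lower without C, where the share called (23.1%) was near that of all genes. SPX1, a phosphate sensor, was at 4.7 and 4.79 CPM in A and B, 32.8 in C and 10.8 to 28.3 in the pool. By their medians C stood on the other side of the pool mean from A and B in these 3 lists. With all libraries none of the flavonoid genes, 4 of the starch genes and 1 of the phosphate genes had an unadjusted p under 0.05, and 0, 1 and 0 were called by DESeq2.

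Clock genes gave no call by edgeR with all libraries, while DESeq2 called 3 day and evening genes and 1 morning gene lower. Of 14 day and evening genes 6 fell and 2 rose without C (57.1% called, where 25.7% of all genes were), and C lay below the pool range in 8, with a list median of -0.289 against -0.271 and -0.123 in A and B. GI, an evening gene, was at 39.7 and 43.7 CPM in A and B, 106 in C and 102 to 122 in the pool, and ELF4 at 1.33 and 1.03 CPM in A and B, 3.35 in C and 2.96 to 5.66 in the pool. Of 12 morning genes 2 rose and 1 fell, and LHY was at 7.99, 8.72 and 5.87 CPM in the line and 6.48, 2.77 and 3.78 in the pool. Of 10 clock outputs 1 rose and 2 fell. The morning and output shares, 25% and 30%, were near that of all genes. The labels give no hour of collection.

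The other lists are given by their counts without library C, beside the 25.7% of all genes called. Of 23 cytosolic ribosomal protein genes 8 fell (34.8%), and of 16 iron genes 7 fell and 1 rose (50%), and neither list had a call with all libraries. Above the share of all genes were also shade and PIF, with 5 higher and 1 lower (50%), cell wall loosening, with 6 and 5 (47.8%), senescence, with 2 and 2 (44.4%), and brassinosteroid and gibberellin, with 5 and 2 (35%). Of 13 floral transition genes 3 rose and 2 fell (38.5%), among them SPL4, a flowering promoter, at 10.3 and 13.4 CPM in A and B, 3.09 in C and 2.44 to 4.6 in the pool. Near or below the share of all genes were salicylic acid defence, with 4 higher and 1 lower (26.3%), cold, with 3 lower of 13 (23.1%), jasmonate, with 2 higher and 3 lower (20%), and tau glutathione transferases, with 2 lower of 18 (11.1%). NIA2, a nitrate reductase, was the 1 call of 11 nitrate genes (9.09%). None of 22 light-harvesting and Rubisco genes, 14 drought and abscisic acid genes, 10 heat shock genes, 4 root markers or the 1 tested flower and seed marker was called by edgeR or DESeq2 with or without C. With all libraries 3 of the drought genes, 1 of the heat shock genes and none of the other 3 lists had an unadjusted p under 0.05.

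**Figure D4:**
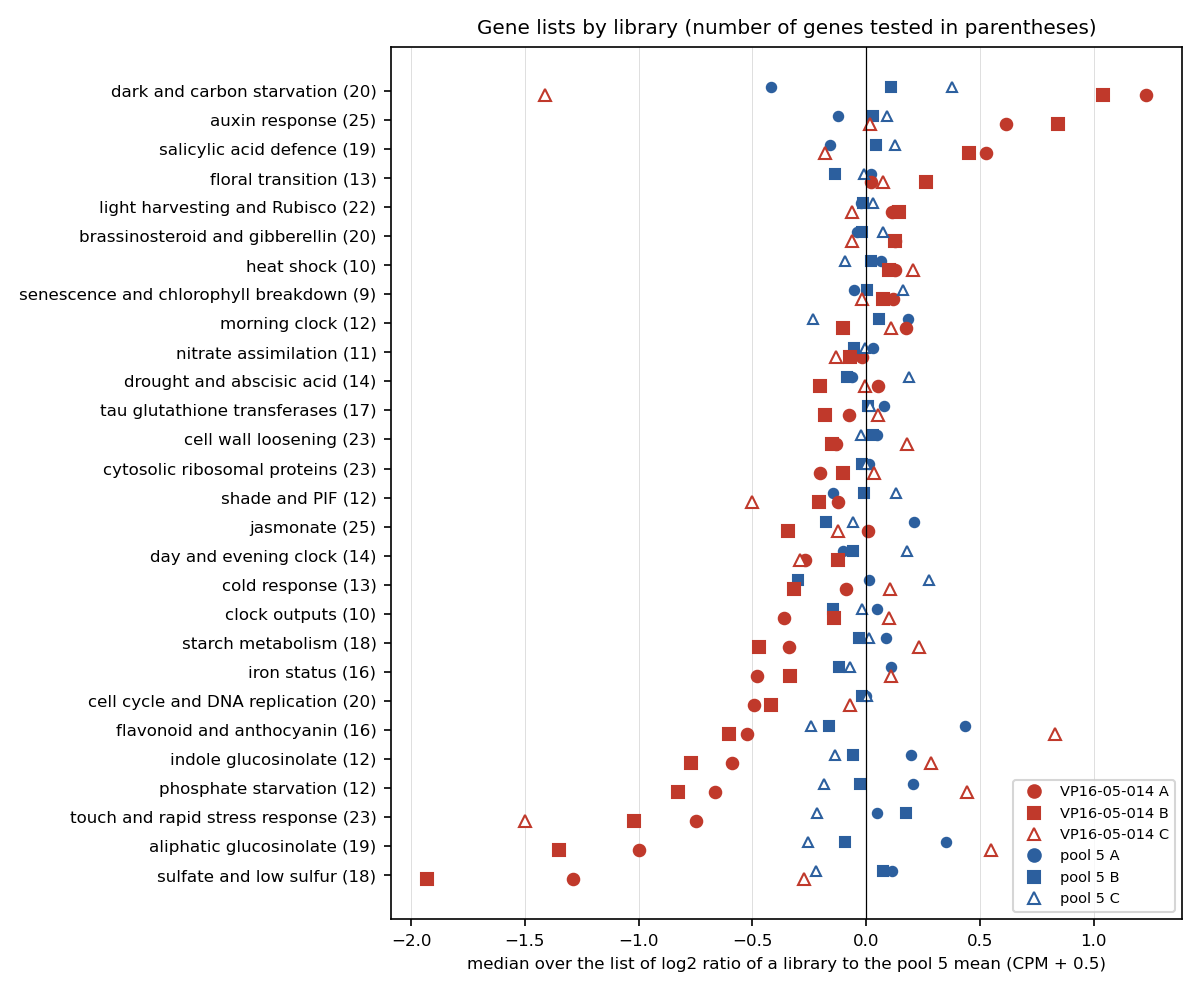
Median log2 ratio to the pool 5 mean (CPM + 0.5) over each gene list with at least 9 genes tested, in the line libraries (red) and pool libraries (blue), lists ordered by libraries A and B. Line library C (open red triangle) is on the side of A and B for touch and rapid stress genes and on the opposite side for dark and carbon starvation, aliphatic glucosinolate and flavonoid genes.

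Across the series, 4 entries (0.0204%) were higher in all 3 libraries of VP16-05-014 than in each of the other libraries and 20 (0.102%) were lower. The entries above were VP16, AT5G57760, AT5G33382 and AT1G63380. AT5G57760, annotated as an uncharacterized protein, was at 1.25, 1.54 and 1.45 CPM in the line, 0.534, 0.37 and 0.343 in the pool and a mean of 0.292 in Col-0 (1.80, standard error 0.37, adjusted p = 0.0182). AT5G33382 and AT1G63380 did not pass the test (adjusted p = 0.0563 and 0.112, and 0.0136 and 0.069 without library C). Those below include LYK5, a receptor-like kinase of chitin perception, at 5.33, 5.04 and 3.35 CPM in the line and 14, 16.9 and 10.5 in the pool (-1.59, standard error 0.31, adjusted p = 0.0171). TBP2, a TATA-binding protein, was at 18.8, 17.5 and 18 CPM in the line and 23.4, 24.3 and 22.1 in the pool and fell by 0.36 (standard error 0.075, adjusted p = 0.0202). Both genes were low in library C as in A and B. Without C the differences of AT5G57760, LYK5 and TBP2 were 1.77, -1.39 and -0.36, all called. LYK5 and TBP2 were picked out after their values were seen.

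The second VP16 line made it possible to ask whether the line-to-pool difference was the same in both, with no library shared. The test of the difference between the effects called 359 of 19566 genes (1.83%), 198 (1.01%) with a more positive difference in VP16-05-014 and 161 (0.823%) with a more negative one. Without library C of VP16-05-014 it called 251 of 19751 genes (1.27%), 131 (0.663%) more positive and 120 (0.608%) more negative, of which 191 were also among the 359. With library size alone in place of TMM the split was 108 and 231. In the 10 genes with the smallest p, 5 in each direction, it was mostly VP16-02-003 that stood away from its pool.

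CYP97B3, a cytochrome P450 of the family that hydroxylates carotenoids, was at 132, 133 and 137 CPM in VP16-05-014 and 130, 151 and 138 in pool 5, with overlap. In VP16-02-003 it was at 23.2, 22.7 and 28 CPM and in pool 2 at 96.9, 103 and 127. The difference between the effects was 2.08 on the log2 scale (standard error 0.12, adjusted p = 1.64e-10). GSTU26, a tau glutathione transferase, was at 6.81, 5.81 and 7.07 CPM in VP16-05-014 and 6.71, 5.91 and 7.45 in pool 5, where VP16-02-003 had 25.4, 25.7 and 26.4 and pool 2 had 5.34, 6.01 and 6.71 (-2.14, standard error 0.18, adjusted p = 9.55e-08). YAB3, a YABBY transcription factor of leaf polarity, was at 29.1, 32.7 and 29 CPM in VP16-05-014 and 31.7, 32.4 and 32.6 in pool 5, where VP16-02-003 had 53.1 to 58.3 and pool 2 27.3 to 29.9 (-1.06, standard error 0.094, adjusted p = 2.14e-07).

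AT1G20490 and AT1G59660 also differed in A and B of VP16-05-014. AT1G20490, annotated as an AMP-dependent synthetase and ligase, was at 5.95, 5.98 and 2.97 CPM in VP16-05-014 and 2.67, 3.6 and 3.33 in pool 5, against 33.4 to 36.2 in VP16-02-003 and 2.88 to 3.16 in pool 2. AT1G59660, annotated as a nucleoporin autopeptidase, was at 4.15, 3.68 and 6.75 CPM in VP16-05-014 and 8.47, 7.3 and 6.01 in pool 5, against 27.5 to 29.8 in VP16-02-003 and 6.32 to 7.87 in pool 2. The 10 genes kept their call in every fit that left out 1 of the 12 libraries, and without library C of VP16-05-014 the differences of CYP97B3, GSTU26, YAB3, AT1G20490 and AT1G59660 were 2.08, -2.19, -1.01, -2.60 and -2.87.

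Among the lists, 4 of 25 jasmonate genes were more positive in VP16-05-014 in this test, where 1.01% of all genes were. The same 4, AOC2, AOS, LOX2 and TIFY7, were called without library C, where 0.663% of all genes were more positive. Such a call does not say which line moved. Against pool 5, LOX4 was the 1 jasmonate gene called in VP16-05-014 with all libraries, and it fell. AOS, LOX2 and AOC2 encode enzymes of jasmonate synthesis and TIFY7 a JAZ repressor. In the aliphatic glucosinolate and flavonoid lists the calls depended on library C, which lay above the pool in most of their genes. With all libraries 5 of 19 and 5 of 16 were more positive, and without C 0 and 2 were, beside the same 1.01% and 0.663% of all genes. For CYP79F2, a cytochrome P450 that acts on chain-elongated methionine, the difference between the effects was 2.87 (adjusted p = 0.0421) with all libraries and 1.34 (adjusted p = 0.261) without C. The flavonoid genes called with and without C were DFR and LDOX, enzymes of anthocyanin synthesis. The list members named in this test were picked out after their values were seen. No gene of the touch, auxin, dark or sulfate lists was called with all libraries, and without C the only one was TCH3.

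**Figure D5:**
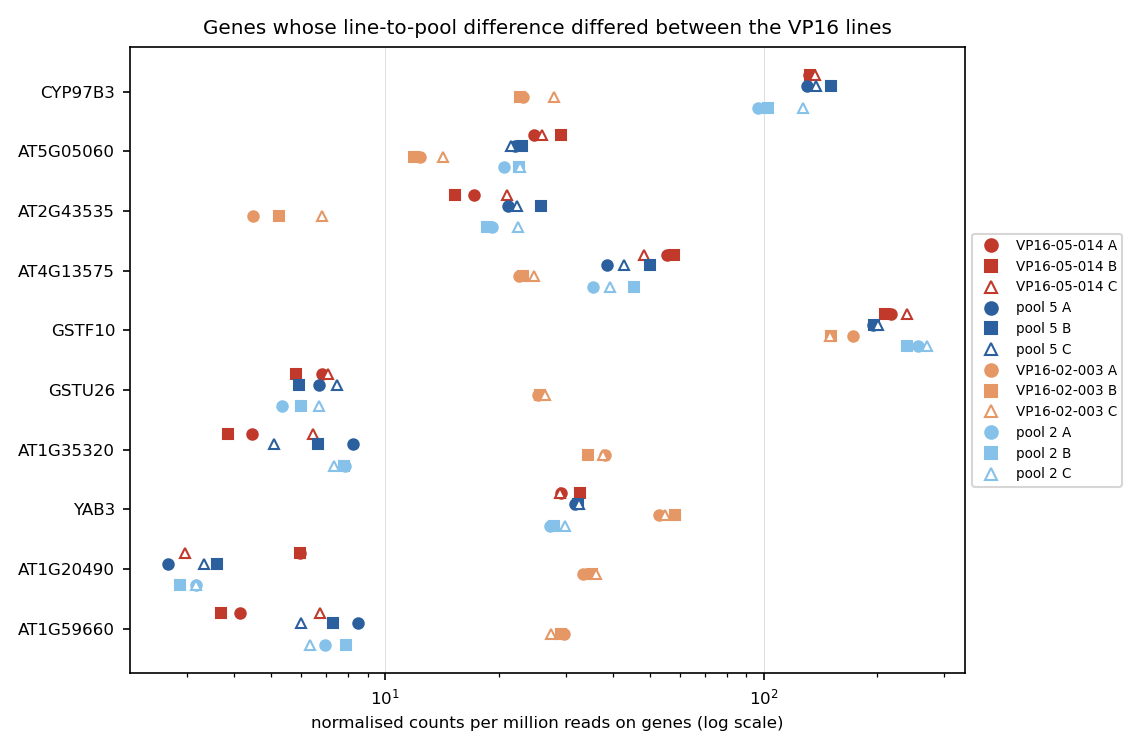
Normalised CPM (log axis) of the 10 genes with the smallest p in the test of the difference between the VP16 lines, in VP16-05-014 (red), pool 5 (dark blue), VP16-02-003 (orange) and pool 2 (light blue). VP16-05-014 mostly lies closer to its pool than VP16-02-003 lies to pool 2. Still, VP16-05-014 lies above all of pool 5 in GSTF10 and below all of it in AT2G43535. VP16-02-003 mostly lies away from both pools.

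Among the genes named, AT2G05914, ORA47, TCH2, GBF3, AT5G02760, AT1G05575, AT4G33467, AT3G41979, GSTU18, WRKY33, WRKY40, WRKY53, APR1, APR3, ASN1, GDH1, SOT18, TBP2, EXO70H7, SPL4, TCH3, AT5G57760 and AT1G63380 overlap another annotated gene. No use of strand in counting is stated, so their reads and those of the overlapping gene cannot be told apart.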

How the data were processed

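RNA of 30 shoot libraries, 3 in each of 10 groups, was counted per gene by the authors, and the deposited tables hold raw counts, 1 table per library, with no normalisation. The submitters' processing notes name the TAIR10 build and the tools HTSeq and TopHat2 2.0.5 but not what each did. For HTSeq, its version, mode and strand setting, and the release of the annotation, are not given in the sources used here. The 5 entries that name no gene were left out. In the 6 libraries of the comparison 0.813 to 1.94% of the reads in a table fell on no feature and 1.33 to 1.40% were ambiguous.

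Counts were normalised by TMM, filtered with filterByExpr at a minimum count of 10 and fitted for all 30 libraries with edgeR 4.0.16 (quasi-likelihood test, R 4.3.3, 20 residual degrees of freedom). Benjamini-Hochberg adjustment ran over all genes tested, and genes under 0.05 are called. CPM are counts scaled to the normalised library size, and per-library log2 ratios used CPM + 0.5. The edgeR test of line against pool was tried on simulated counts of all 30 libraries, in which no library of a group stood apart. The other fits and the difference between the lines were not tried in this way. Alternatives used DESeq2 1.42.0, limma 3.58.1, other scalings, no filter, fewer libraries and the replicate letter as a block. The labels do not say that a letter marks a shared origin.

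The genes named were taken from sets picked by a rule. These were the 10 largest called changes in each direction with at least 5 CPM in the higher group, with and without line library C. Up to 4 members of each list by smallest p and the VP16 entry were also picked. So were 5 genes in each direction for the difference between lines. Not every gene picked without line library C, or from the lists, is printed. Others are said to be chosen after their values were seen. The comparison and the 30 gene lists (518 genes) were chosen with earlier results of these data known. List members beyond the rule are given to show how C lies against A and B. Of the loci, 31912 of 32679 were matched to RefSeq TAIR10.1, which gave names, products and overlaps. Plastid loci were not matched and are given only as a group.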

Additional observations from a re-analysis of the deposited data

Results flagged for a closer look

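The line-to-pool difference of VP16-05-014 differed from that of VP16-02-003 in 359 genes by the edgeR test of the difference itself, and the 10 with the smallest p are listed here by that difference on the log2 scale. It was positive for CYP97B3 (2.08), AT2G43535 (1.50), AT4G13575 (1.08), AT5G05060 (1.04) and GSTF10 (0.87). It was negative for AT1G20490 (-2.90), AT1G35320 (-2.65), AT1G59660 (-2.56), GSTU26 (-2.14) and YAB3 (-1.06). In AT2G43535, annotated as a knottin-like protein, VP16-05-014 held 17.2, 15.3 and 21 CPM and pool 5 held 21.1, 25.9 and 22.3, where VP16-02-003 held 4.49, 5.24 and 6.8 and pool 2 19.2, 18.6 and 22.5. In AT1G35320 VP16-05-014 held 4.46, 3.85 and 6.44 CPM and pool 5 held 8.24, 6.65 and 5.08, where VP16-02-003 held 34.4 to 38.1 and pool 2 7.34 to 7.84. GSTF10, a phi glutathione transferase, held 217, 209 and 239 CPM in VP16-05-014 and 195, 196 and 201 in pool 5, against 150 to 172 in VP16-02-003 and 240 to 271 in pool 2.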

How the results depend on the processing

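The count of genes called between the line and pool 5 depended on the setting, and the cause was not tested. In place of 293 (124 higher, 169 lower), DESeq2 called 742 (432 and 310), limma voom with library quality weights 5829 (2993 and 2836, with a weight of 0.108 for line library C), and edgeR on the 6 libraries alone 0 (0 and 0, with 1725 genes at an unadjusted p under 0.05). Leaving out 1 library gave 2 to 5075 genes (2 to 2611 higher, 0 to 2464 lower). Added after seeing the data, and without line library C, the 5 libraries alone gave 5107 (2760 and 2347), DESeq2 4805 (2577 and 2228), and removal of organelle and rRNA genes 4984 (2565 and 2419). Library size alone gave 68 higher. DESeq2 size factors, no filter and removal of organelle genes gave 304, 203 and 290.

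The replicate letter as a block gave 0 (0 and 0, with 1015 at an unadjusted p under 0.05) over the groups compared and 232 (93 and 139) over all 30 libraries. Line and pool 5 libraries of the same letter, A, B and C, correlated at -0.375, 0.128 and -0.38 in their deviations from the group means. Deviations within so small a group are tied to each other, and line library C stands apart. These values therefore cannot decide whether a letter marks a shared origin.

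For the difference between the lines, in place of 359 (198 and 161), DESeq2 called 544 (337 and 207), voom 679 (338 and 341), the groups compared alone 81 (41 and 40), the block over them 37 (18 and 19), and library size 108 higher. Leaving out 1 library gave 153 to 683 (70 to 476 higher, 73 to 207 lower).

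Of the genes picked by the naming rule, 9 changed sign, none of them called with all libraries. Leaving out 1 library moved the log2 difference between the values given for XTH31 (-2.99 and 0.20), AT2G15020 (-2.85 and 0.72), SOT17 (-1.83 and 0.17), CYP79B2 (-1.98 and 0.14), PAP1 (-2.53 and 0.89), FLS1 (-0.91 and 0.086), UF3GT (-1.32 and 0.44), SPX1 (-1.97 and 0.054) and SQD1 (-0.19 and 0.015), with library C the one that moved each to its lowest. With quality weights, the block over the groups compared and the 3 added settings without C, in that order, AT2G15020 was at -2.22, -1.15, -2.81, -2.92 and -2.85, PAP1 at -2.09, -0.83, -2.50, -2.56 and -2.53, and UF3GT at -1.13, -0.44, -1.30, -1.34 and -1.32. UF3GT was at -0.012 with DESeq2 and -0.0059 with the block over all libraries.

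Depth limits the low genes: ZAT11 and LSU3 rest on fewer than 1 CPM in at least 1 line library. With 3 libraries a group, 1 of which stands apart, the calls with all libraries favour genes in which C sided with A and B, and calls without C rest on 2 line libraries. The 5 lower touch and rapid stress genes became 0 without pool library B and 7 without line library C, and the 4 higher auxin genes 0 without line library B or pool library B and 14 without C. All genes called between the line and pool 5 with all libraries kept their direction without C. The 2 fits share every library but C, so this is not a separate check.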
